A study of Mus musculus with 8 samples.

Results

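The pseudogenes expressed in lens fiber cells (FC) were defined by 2 columns of the deposited gene table, the type of gene and the level. A row typed as pseudogene was a member when its mean level reached 1.0 FPKM (fragments of a gene, scaled to its length and to the size of the library) over the 4 libraries of untreated control (Ct) mice or over the 4 libraries of mice exposed to cigarette smoke (CS). This rule selected 213 of 7373 pseudogene rows, in a table of 35275 rows. The remaining pseudogenes included 5460 that were at 0 FPKM in every library. Because the levels chose the members, the levels are given as a description. Of the 213 members, 169 reached 1.0 FPKM in both groups, 19 only in Ct and 25 only in CS, and the last 2 sets had to differ between the groups to some extent.

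Pseudogenes are copies of genes that have lost the ability to make the original protein. Processed pseudogenes arise when a messenger RNA is copied back into DNA and inserted elsewhere in the genome, so they lack introns and usually lack the promoter of the parent gene. Short, highly transcribed housekeeping genes, above all those for ribosomal proteins, have left many such copies in mammalian genomes. Unprocessed pseudogenes come from duplication of a stretch of DNA and keep the intron structure. A further kind is a piece of mitochondrial DNA inserted into a nuclear chromosome. A short sequencing read from a recent copy can match the parent gene as well as the copy, and the number assigned to either then depends on how the aligner places it.

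Each library held FC from the right eyes of 4 C57BL/6 mice (C57BL/6J in the methods of the study), dissected away from the lens epithelium under a microscope. The 4 libraries of a group were separate pools. The methods of the study describe 2 male and 2 female replicates in each group, and sex was not part of the tests. The CS mice had breathed smoke in a whole-body chamber from around birth for 5 hours a day on 5 days a week over 3.5 months, and the Ct mice were of the same age and untreated. The FPKM steps corresponded to about 18100000 to 23300000 fragments per library. All 10 lens fiber markers examined were detected, with a summed level of 295344 to 302827 FPKM in Ct and 287439 to 297660 FPKM in CS. Markers of rod photoreceptors moved with the groups: 7 of 8 tested were higher in CS at an unadjusted p under 0.05 by limma, and their 9 summed levels were 10.9 to 28.7 FPKM in Ct and 30.7 to 88.0 FPKM in CS, with none of the 9 at 0 throughout. All 4 tested markers of the pigment epithelium were also higher, with sums of 0.922 to 1.84 FPKM in Ct and 2.68 to 25.4 FPKM in CS. Among blood markers 1 of 2 tested was higher, with sums of 0.265 to 1.73 FPKM in Ct and 0.4999 to 22.8 FPKM in CS, and 1 of 8 markers of the lens epithelium was lower. The part of these other cells in the results below was not tested. In these bulk samples, fewer cells of a type and less RNA per cell cannot be told apart.

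The sequences of a few members show how near they are to their parents, and how far a read could tell the 2 apart. Parent here means the protein-coding gene whose annotated transcript aligned best to the member over at least 50% of its length, in the GENCODE M21 annotation of mouse genome build GRCm38. Ribosomal protein L41 (Rpl41) encodes one of the smallest known proteins. The member with the highest level, Gm10736, is annotated as a stretch equal to the Rpl41 coding sequence, and bases beyond that stretch were not compared. The coding sequence of Rpl41, read over its exons, is compared with Gm10736 (chr13:111593534-111593611, minus strand) and with Gm12991 (chr4:135377158-135377235, plus strand), with capitals at the 8 bases where Gm12991 differs.
Rpl41: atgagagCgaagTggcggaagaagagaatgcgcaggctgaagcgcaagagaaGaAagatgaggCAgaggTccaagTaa
Gm10736: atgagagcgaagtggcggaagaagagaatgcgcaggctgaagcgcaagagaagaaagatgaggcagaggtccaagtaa
Gm12991: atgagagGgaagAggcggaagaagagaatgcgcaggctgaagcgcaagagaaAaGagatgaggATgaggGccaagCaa
Gm10180 (chr9:25101404-25101481, minus strand) has the same 78 bases as Gm10736, and Gm3699 (chr10:43456427-43456501, minus strand) has the first 75 of them. Counted from the first base of the Rpl41 coding sequence, Gm12991 carries the changes C8G, T13A, G53A, A55G, C64A, A65T, T70G and T76C.

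Ribosomal protein L38 (Rpl38) has 2 copies among the members, and 1 base separates them. Rpl38-ps2 (chr6:140746960-140747172, minus strand) equals the 213-base coding sequence of Rpl38, whereas Gm8129 (chr6:52346730-52346942, minus strand) has 1 change, G50A, shown in capitals.
Rpl38-ps2: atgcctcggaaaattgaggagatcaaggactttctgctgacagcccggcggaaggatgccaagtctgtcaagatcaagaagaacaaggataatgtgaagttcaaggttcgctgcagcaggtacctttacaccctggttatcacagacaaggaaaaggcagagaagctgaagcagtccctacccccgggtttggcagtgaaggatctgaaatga
Gm8129: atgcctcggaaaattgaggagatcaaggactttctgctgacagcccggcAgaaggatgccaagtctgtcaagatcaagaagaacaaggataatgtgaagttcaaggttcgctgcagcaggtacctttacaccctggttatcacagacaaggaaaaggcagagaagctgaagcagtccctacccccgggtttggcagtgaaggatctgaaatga
Every window of 150 bases, the read length, in Rpl38-ps2 also occurs in another annotated transcript. In Gm8129 the single change makes 78.1% of its 64 windows its own.

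S100a11 encodes a small calcium-binding protein, and its copy Gm12854 (chr4:116067268-116067564, plus strand) was the member with the largest log2 fold change among those whose CS and Ct values did not overlap. Bases 50 to 289 of the 297-base coding sequence hold all 3 changes, T240C, G241A and C289T, in capitals.
S100a11: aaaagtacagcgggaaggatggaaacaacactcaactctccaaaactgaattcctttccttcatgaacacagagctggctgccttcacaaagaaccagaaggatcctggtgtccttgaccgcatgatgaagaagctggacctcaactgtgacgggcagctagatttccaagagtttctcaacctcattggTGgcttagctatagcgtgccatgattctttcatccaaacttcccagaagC
Gm12854: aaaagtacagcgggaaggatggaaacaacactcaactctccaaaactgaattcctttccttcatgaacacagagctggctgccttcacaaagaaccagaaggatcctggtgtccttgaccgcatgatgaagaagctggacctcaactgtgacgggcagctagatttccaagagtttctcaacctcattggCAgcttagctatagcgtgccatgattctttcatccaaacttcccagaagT
Of the 148 windows of Gm12854, 39.2% occur in no other annotated transcript.

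A block of mitochondrial DNA on the minus strand of chromosome 1, between positions 24611535 and 24616197, holds 6 further members. Its copy of the cytochrome c oxidase subunit 1 gene (mt-Co1), RP23-8J15.1 (chr1:24615706-24616197), differs from bases 1054 to 1545 of the gene at 6 positions near the start of the copy (T1056A, C1057T, A1059G, A1060G, C1062A and A1066T), marked in capitals in its first 240 bases.
mt-Co1: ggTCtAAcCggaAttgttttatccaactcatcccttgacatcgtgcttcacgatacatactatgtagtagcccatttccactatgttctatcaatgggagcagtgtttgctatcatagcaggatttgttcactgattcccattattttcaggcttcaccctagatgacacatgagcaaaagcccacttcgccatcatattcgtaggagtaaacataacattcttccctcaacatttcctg
RP23-8J15.1: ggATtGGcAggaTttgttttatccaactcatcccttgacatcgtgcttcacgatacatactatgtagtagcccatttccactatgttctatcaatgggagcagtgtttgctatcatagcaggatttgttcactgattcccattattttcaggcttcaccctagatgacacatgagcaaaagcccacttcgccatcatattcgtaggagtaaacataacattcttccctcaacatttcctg
The member beside it, RP23-8J15.2 (chr1:24614885-24615565), equals the first 681 bases of mt-Co2 with no change.

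Expressed pseudogenes were mostly processed copies with 1 exon. Of the 213 members, 206 were found in GENCODE M21, 194 by symbol and 12 by the name beside a clone symbol, and 168 of these are processed pseudogenes there. Another 10 are transcribed processed, 12 transcribed unprocessed and 10 unprocessed pseudogenes, and 203 of the 206 carry some pseudogene type. In M21, 2 members are annotated as protein-coding genes, among them 0610012G03Rik. The length implied by the FPKM steps equalled the annotated exon length in 159 members and differed in 47. Member lengths ran from 69 to 5637 bases with a median of 480, compared with a median of 3000.5 bases over the 9794 genes of any type that reached 1.0 FPKM in either group.

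Levels were concentrated in a few members. The 3 highest held 40.1% and the 12 highest 59.0% of the summed FPKM of all 213, while 176 members were under 10 FPKM. The median member was at 2.42 FPKM, compared with 4.68 FPKM over the 9794 genes. The members together summed to 2239 to 2334 FPKM in the Ct libraries and 2332 to 2596 FPKM in the CS libraries, so the groups overlapped.

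The 3 members with the highest levels were all copies of ribosomal protein genes. Gm10736 stood at 446, 413, 437 and 402 FPKM in Ct replicates 1 to 4 and at 442, 563, 437 and 535 FPKM in CS replicates 1 to 4, so CS replicates 2 and 4 lay above every Ct library while the other 2 lay within the Ct range. Its log2 fold change was 0.21 ± 0.08 (SE, n = 4 and 4, limma p = 0.0198, adjusted p = 0.956, exact permutation p = 0.143). Gm10180 was at 246, 332, 244 and 288 FPKM in Ct and 339, 251, 361 and 377 FPKM in CS, and there the CS library below the others was replicate 2, the one that was highest for Gm10736. Its log2 fold change was 0.25 ± 0.13 (SE, limma p = 0.0712, adjusted p = 0.956, exact permutation p = 0.171). The 2 members have the same annotated sequence, but their order across the libraries was not the same. Rpl38-ps2 held 188 ± 19.7 FPKM in Ct and 199 ± 30.7 FPKM in CS (SD, n = 4 each), and its groups overlapped.

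Of the next 9 members, 2 were again ribosomal copies (Gm2830 and Gm15500), and no parent was found for 2 others, 0610012G03Rik and H2-K2. 0610012G03Rik was at 72.9 ± 6.18 FPKM in Ct and 70.7 ± 9.57 FPKM in CS. RP24-421A2.1, a copy with 91.7% identity to the protein kinase inhibitor gene Pkig, was at 56.4 ± 4.80 and 67.9 ± 13.0 FPKM. Gm2830, a copy of the small-subunit ribosomal protein gene Rps24, was at 53.8 ± 10.4 and 53.4 ± 5.64 FPKM. Neither of the last 2 separated the groups. Pisd-ps1 derives from Pisd, which encodes the mitochondrial enzyme that makes phosphatidylethanolamine, and was at 53.9 ± 8.54 and 48.6 ± 7.34 FPKM. Gm4204, a copy of the histone chaperone gene Nap1l1, was at 51.0 ± 2.64 and 47.3 ± 4.20 FPKM. H2-K2, a relative of the class I histocompatibility genes, was at 40.3 ± 5.81 and 43.8 ± 1.83 FPKM. Gm3788, Gm4152 and Gm15500 completed the 12 highest, at 44.8 ± 10.5, 38.4 ± 8.12 and 39.7 ± 4.24 FPKM in Ct and at 39.2 ± 10.6, 42.2 ± 5.91 and 38.1 ± 2.69 FPKM in CS. Gm3788 copies Tmsb10, which encodes an actin monomer-binding peptide, Gm4152 aligns best to Timm13, a gene for a chaperone of mitochondrial protein import, and Gm15500 copies Rpl5, a gene for a protein of the large ribosomal subunit. None of the 12 highest had an adjusted p under 0.05, and only Gm10736 had an unadjusted limma p under 0.05. Without CS replicate 2 this changed places: the log2 fold change of Gm10736 was 0.15, with an unadjusted p above 0.05, and that of Gm10180 was 0.38, with one under it. Gm10736 was also above 0.05 without Ct replicate 4, without CS replicate 4 and without the variance trend. An unadjusted p under 0.05 was also reached by Gm10180 without Ct replicate 2 (log2 fold change 0.34), by RP24-421A2.1 with a minimum of 2 FPKM (0.25) and without Ct replicate 4, CS replicate 3 or CS replicate 4 (0.31, 0.34 and 0.32), and by Gm4204 without CS replicate 1 (-0.16).

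A parent was found for 195 members, with 138 different parents and a median identity of 99.3%, and 34 alignments had no mismatch. Ribosomal protein genes were the parents of 94 members, or 44.1%, through 53 different genes. Another 53 members had parents outside the classes named here, and 6 had mitochondrial genes as parents. The remaining classes, by best alignment, were small. Genes of nuclear and chromatin proteins were the parents of 10 members. Chaperone and folding genes had 5, and so had oxidative phosphorylation genes. Translation factor, cytoskeleton and zinc finger genes had 4 each, as did genes of ubiquitin, SUMO or the proteasome. Glycolysis genes were the parents of 3 members, and ferritin or Tpt1 of 3. None had a crystallin, beaded filament or other lens protein gene of the list as its parent. Ribosomal copies ran from 0.686 to 459 FPKM with a median of 3.57 FPKM, and the 10 nuclear and chromatin copies reached 49.1 FPKM with a median of 2.65 FPKM.

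Most members were lower than their parents. FPKM is scaled to length, but a read can match both a copy and its parent. How such reads were assigned is not known, so the comparison is of levels as listed, as means over 8 libraries. Of 186 members whose parent was above 0 FPKM, 172 were lower than the parent and 14 higher. The median member was at 1.48% of its parent, with the middle range of members between 0.444% and 7.80%, with 74 under 1% and 144 under 10%. Hsp25-ps1, a copy of the small heat shock protein gene Hspb1, was at 0.0367% of its parent, and Gm10736 was at 27.3% of Rpl41.

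**Figure D1:**
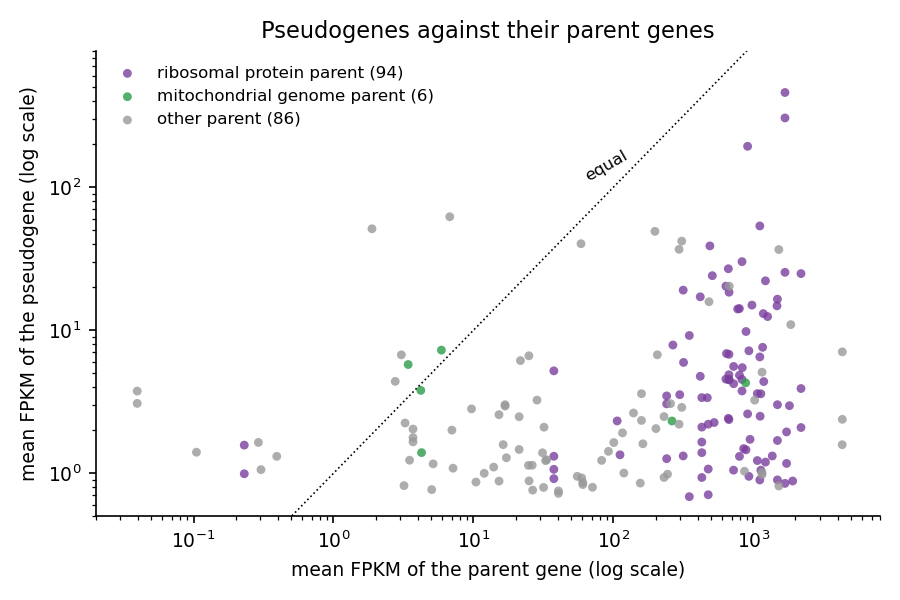
Mean FPKM of 186 pseudogenes (vertical) against the mean FPKM of the parent gene (horizontal), both over 8 libraries and on log scales, with ribosomal protein, mitochondrial genome and other parents in different colours. The dotted line marks equal levels, and 172 of the 186 points lie below it.

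Among the 14 members above their parent were 4 whose parent, a gene transcribed in nearly all cells, was low in this table. RP23-8J15.2 and RP23-8J15.3 exceeded mt-Co2 and mt-Atp6, at 123% and 169% of them. Gm12254 and Gm9385 exceeded Rpl24, a ribosomal protein gene, which was listed at a mean of only 0.0904 FPKM in Ct and 0.370 FPKM in CS, when the median of 82 ribosomal protein genes and their paralogs was 817.5 FPKM. Gm12254 itself was at 1.77 ± 0.291 FPKM in Ct and 1.37 ± 0.488 FPKM in CS, and Gm9385 at 0.609 ± 0.436 and 1.38 ± 1.196 FPKM. Rpl23a was also low for its class, at 36.5 and 38.6 FPKM, and its 4 copies among the members ran from 0.917 to 5.20 FPKM. Of the other 10, Gm21811 and Gm10557 were the highest relative to their parent, at 9488% and 7782% of the cadherin gene Cdh11, which was at 0.0408 FPKM in Ct and 0.0384 FPKM in CS. Pisd-ps1 was at 51.2 FPKM over all libraries and 2721% of Pisd, and all 966 of its windows were its own.

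Families with several expressed copies were nearly all ribosomal. Rpl9 had 5 members, Rpl17, Rpl23a and Rpl41 had 4 each, and Rpl21, Rpl28, Rpl35a, Rps13 and Rps24 had 3 each, as did the glycolytic gene Gapdh and the zinc finger gene Zfp772. Copies of 1 parent differed widely in level. The Rpl41 copies had 459, 305, 25.4 and 0.850 FPKM (Gm10736, Gm10180, Gm3699 and Gm12991, means over 8 libraries). As annotated, the first 3 have no base that differs from Rpl41. The 4 Rpl17 copies ran from 0.899 to 16.5 FPKM, the 3 Rpl28 copies from 2.09 to 24.9 FPKM and the 3 Rps13 copies from 3.77 to 30.2 FPKM. The 5 Rpl9 copies lay closer together, from 0.934 to 3.38 FPKM, as did the 3 Zfp772 copies, from 1.66 to 2.04 FPKM. The Zfp772 copies were at 44.8% to 55.1% of their parent and the Gapdh copies at 0.0850% to 0.441%.

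Many members lie inside other genes. In the annotation 90 members are within another gene, 14 of them over its exons. A measured protein-coding gene surrounds 59 members outside its exons, and for 41 of these it is on the opposite strand. Rps13-ps6, at 28.3 ± 2.93 FPKM in Ct and 32.1 ± 8.82 FPKM in CS, lies in the beaded filament gene Bfsp1 on the opposite strand. Rps2-ps10 lies in Pde6a, a rod photoreceptor gene, again on the opposite strand. It was at 2.81, 3.04, 3.21 and 3.72 FPKM in Ct and 2.70, 3.28, 2.78 and 2.20 FPKM in CS and overlapped between the groups. Its log2 fold change was -0.22, beside 1.83 for Pde6a, which had an unadjusted limma p under 0.05. Whether the counting used the strand of the reads is not given in the sources used here.

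Read numbers behind these levels were small. The steps between low FPKM values gave whole reads for all 213 members, within 0.02 of a whole number, and for 99.8% of the 9794 genes. A member had a median of 28.5 reads per library, compared with 317 over the 9794 genes, and 111 members (52.1%) had a mean under 30 reads, compared with 3.23% of the genes. Only 46 members had a mean of 100 reads or more. At the median member length of 480 bases, 9.54 reads were enough for 1.0 FPKM in Ct replicate 1, against 59.7 reads at the median length of all genes. For the 78 bases of Gm10736, 1 read in that library was worth 0.645 FPKM. There were 9 members shorter than the 150-base read itself.

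**Figure D2:**
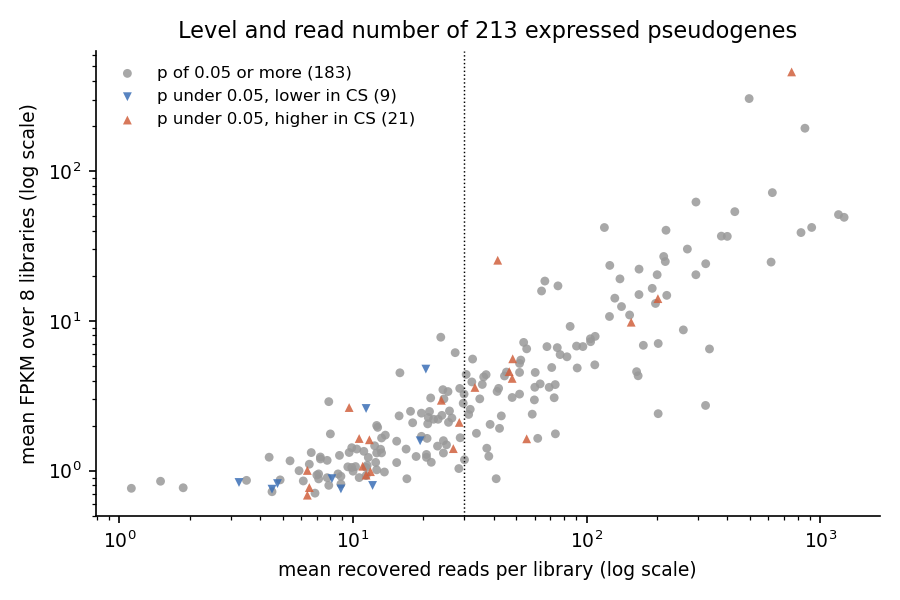
Mean FPKM (vertical) against the mean number of recovered reads per library (horizontal) for the 213 pseudogenes, both on log scales, with triangles for members with an unadjusted limma p under 0.05. The dotted line is at 30 reads, and 21 of the 30 triangles lie to its left.

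The members with most reads were Gm4204 with 1116 to 1554 reads, Pisd-ps1 with 957 to 1658, H2-K2 with 781 to 1029, Rpl38-ps2 with 674 to 1097, Gm15500 with 712 to 955 and Gm10736 with 568 to 1014. At the other end, Gm11702, of 69 bases, had 2 and 7 reads in CS replicates 3 and 4 and was listed at 0 FPKM in the other 6 libraries. Gm12991 had 10 and 2 reads in CS replicates 2 and 3 and was listed at 0 FPKM elsewhere. RP24-179O1.1 had at most 6 reads, Gm15610 at most 9, Tma7-ps at most 10 and Gm11628 at most 16 in any library. There were 15 members listed at 0 FPKM in at least 1 library, and no fold change against a group at 0 is given.

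The spread between libraries, which are pools of different mice, included more than counting error. The squared deviation of the reads from the depth-scaled mean, divided by that mean and averaged over 7 degrees of freedom, is near 1 where counting is the only source of spread. As separate pools and both groups enter, higher values are usual, and its median was 3.36 over the members and 4.94 over the genes. It was 2.75 in members with under 30 reads, 3.41 in those with 30 to 100 and 6.65 in those with more. Tmem181b-ps had the highest value, 130, because 1 library stood apart: it was at 5.02, 4.47, 16.0 and 7.43 FPKM in Ct and at 4.84, 5.16, 4.46 and 4.65 FPKM in CS.

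Between CS and Ct, 30 of the 213 members had an unadjusted limma p under 0.05, 9 lower and 21 higher in CS. Over the 9794 genes this share was 4.83% (2.08% lower and 2.75% higher), and over the members it was 14.1%. The share was larger at low read numbers in genes that are not members as well. With under 30 reads it was 17.6% of 205 such genes and 18.9% of the members. With 30 to 100 reads it was 8.29% of 1254 genes and 10.7% of the members. With 100 reads or more it was 3.70% of 8100 genes and 6.52% (3 of 46) of the members. Members and genes that had passed through 1 group only are counted in these shares. The limma-voom test on the recovered reads weights each value by its read number. It gave 14 members (5 lower and 9 higher), or 6.57%, against 4.93% of all genes. Members and genes that had passed through 1 group only are counted here too, so the choice of members set this share in part. A limma-voom count is not given for the 169 members at 1.0 FPKM in both groups. No member had an adjusted p under 0.05 by either test, and the smallest adjusted limma p over members at 1.0 FPKM in both groups was 0.762. Of the 169 members at 1.0 FPKM in both groups, 17 (10.1%) had an unadjusted p under 0.05, 3 lower and 14 higher, compared with 4.22% of 9327 genes at 1.0 FPKM in both. The remaining 13 of the 30 had passed through 1 group only. The median log2 fold change of the 169 was 0.02. The median over all 213 members was 0.06 and that over all genes 0.0043, and the median absolute log2 fold change 0.22 and 0.08.

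The values of CS and Ct did not overlap in 10 of the 213 members, 3 lower and 7 higher in CS. The same held for 302 of the 9794 genes, or 3.08%. Of the 10, 4 had passed through 1 group only, the one in which they were high, and so had been chosen in part for this difference: Gm12854 and Gm10478 through CS, and Gm7332 and RP24-142M5.3 through Ct. The other 6 were among the 169 members at 1.0 FPKM in both groups. A lack of overlap fixes the exact permutation p at 0.0286, the smallest it can give with 4 libraries in each group. That p therefore adds nothing to the lack of overlap, here or for the single members below. None of the 6 had an adjusted limma p under 0.05.

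**Figure D3:**
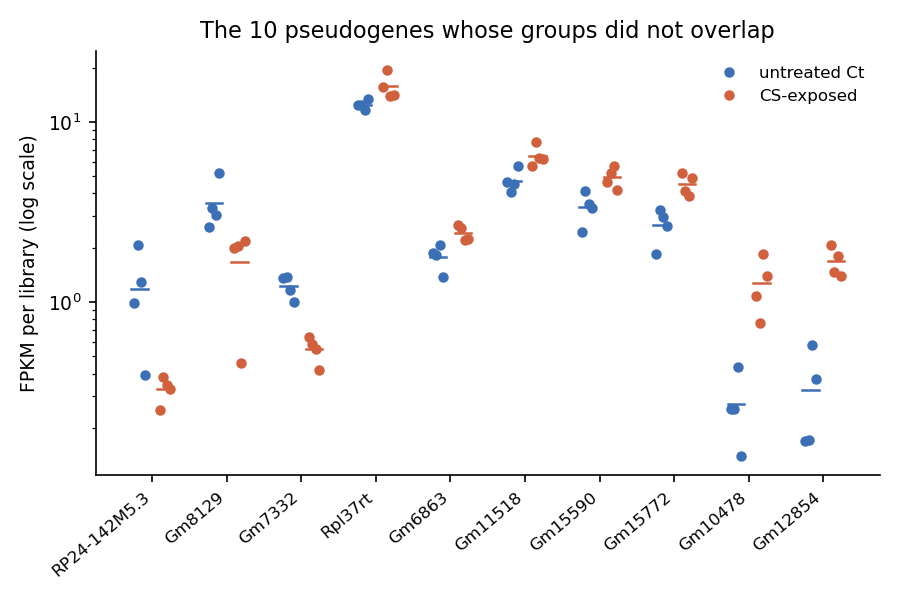
FPKM per library on a log scale for the 10 pseudogenes whose Ct and CS values did not overlap, ordered by log2 fold change, with untreated Ct in blue, CS-exposed in orange and short lines at the group means. The separation is widest in Gm10478 and Gm12854, where single libraries rest on 1 to 15 reads.

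Gm12854, the S100a11 copy shown above, was at 0.169, 0.171, 0.579 and 0.372 FPKM in Ct and at 2.07, 1.46, 1.80 and 1.40 FPKM in CS. Every CS library was above every Ct library, on 1, 1, 4 and 2 reads in Ct and 13, 10, 11 and 9 reads in CS. Its log2 fold change was 2.17 ± 0.35 (SE), and 1.03 with a pseudocount of 1 in place of 0.1. It reached 1.0 FPKM only in CS and so was chosen through the group in which it was high, and the difference is given with no test. S100a11 itself was at 116 and 122 FPKM, with a log2 fold change of 0.08, and Uqcrh, a respiratory chain gene that surrounds Gm12854 on the opposite strand, had 0.05.

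Gm10478 (chr12:20896239-20896638, minus strand) had 0.254, 0.256, 0.434 and 0.140 FPKM in Ct and 1.08, 0.765, 1.85 and 1.40 FPKM in CS, again with a gap between the groups. It rested on 1 to 4 reads per Ct library and 7 to 15 per CS library, and its log2 fold change was 1.88 ± 0.38 (SE), and 0.82 with a pseudocount of 1. It too was chosen through CS alone, so no test is given. Its best protein-coding alignment was to an olfactory receptor gene, Olfr318, at 83.1% identity, and Olfr318 was listed at 0 FPKM in both groups. All 247 of its windows were its own.

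Gm15772 (chr5:3236431-3236868, plus strand) copies Rpl26, which encodes a protein of the large ribosomal subunit, with the changes C177T and T288C. It was at 1.84, 3.24, 2.95 and 2.65 FPKM in Ct and at 5.19, 4.15, 3.89 and 4.85 FPKM in CS, on 16 to 30 and 35 to 48 reads, so the lowest CS library lay above the highest Ct library. The log2 fold change was 0.76 ± 0.17 (SE, limma p = 0.000778, adjusted p = 0.762, exact permutation p = 0.0286, limma-voom p = 0.0346), beside 0.04 for Rpl26. Of its 289 windows, 90.3% were its own.

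The remaining members that were higher without overlap had smaller log2 fold changes. Gm11518, aligned to Rpl27 without a mismatch, was at 4.07 to 5.65 FPKM in Ct and 5.65 to 7.69 FPKM in CS, with a log2 fold change of 0.45 ± 0.12 (SE, limma p = 0.00378, adjusted p = 0.956, exact permutation p = 0.0286, limma-voom p = 0.114). The highest Ct value and the lowest CS value were equal at this rounding. Gm15590, whose best alignment was to the ferritin light chain copy Ftl1-ps1, was at 2.46 to 4.13 and 4.19 to 5.65 FPKM, with 0.55 ± 0.15 (SE, limma p = 0.00386, adjusted p = 0.956, exact permutation p = 0.0286, limma-voom p = 0.0662). Rpl37rt, a transcribed copy of Rpl37, was at 11.7 to 13.5 and 13.9 to 19.4 FPKM on 166 to 305 reads, with 0.32 ± 0.10 (SE, limma p = 0.00948, adjusted p = 0.956, exact permutation p = 0.0286, limma-voom p = 0.0381), beside 0.11 for Rpl37. Gm6863 copies Naca, which encodes a chaperone of nascent proteins. It was at 1.38 to 2.08 and 2.20 to 2.66 FPKM, with 0.42 ± 0.15 (SE, limma p = 0.0179, adjusted p = 0.956, exact permutation p = 0.0286, limma-voom p = 0.234).

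Of the 3 members that were lower without overlap, 2 were chosen through Ct alone. One was Gm7332 (chr5:9260935-9261388, minus strand). It copies Ppp1r14b, a gene for an inhibitor of protein phosphatase 1, with the changes G407C and A441G, and 15.7% of its windows are its own. It was at 1.36, 1.37, 1.16 and 0.996 FPKM in Ct and 0.640, 0.585, 0.549 and 0.416 FPKM in CS, on 8 to 12 and 4 to 6 reads. The log2 fold change was -1.03 ± 0.25 (SE), or -0.52 with a pseudocount of 1, given with no test because only the Ct mean reached 1.0 FPKM. Ppp1r14b had -0.17 and was the sole parent with an unadjusted p under 0.05 among the 23 tested parents of 24 members with one (Rpl41 is the parent of 2).

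Gm8129, the Rpl38 copy with 1 change, was at 2.60, 3.33, 3.03 and 5.19 FPKM in Ct and 2.00, 2.03, 0.457 and 2.17 FPKM in CS, with a log2 fold change of -1.19 ± 0.40 (SE, limma p = 0.0124, adjusted p = 0.956, exact permutation p = 0.0286, limma-voom p = 0.0513). Without CS replicate 3, its lowest library, the log2 fold change was -0.70. Rpl38-ps2, without that change, had 0.08 ± 0.10 (SE, limma p = 0.457, adjusted p = 0.985, exact permutation p = 0.571), and Rpl38 had -0.01. RP24-142M5.3 (chr1:31274892-31275455, plus strand), the other chosen through Ct alone, was at 0.981, 2.07, 1.30 and 0.392 FPKM in Ct and 0.252, 0.384, 0.346 and 0.328 FPKM in CS, so that 1 Ct library nearly met the CS values. Its log2 fold change was -1.41 ± 0.44 (SE), and -0.66 with a pseudocount of 1.

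The groups overlapped in the other 20 members with an unadjusted p under 0.05. Among those lower in CS, Gm13192, a copy of the small-subunit gene Rps28 with no window of its own, had a log2 fold change of -0.99 ± 0.34 (SE, limma p = 0.0147, adjusted p = 0.956, exact permutation p = 0.114, limma-voom p = 0.0468). Gm20689, aligned without a mismatch to the vesicle transport gene Rab8b, had -1.95 ± 0.69 on 0 to 10 reads (SE), with -0.68 at a pseudocount of 1 and -2.99 at 0.01. Gm7887, Hsp25-ps1 and Gm10241, copies of Pcnp, Hspb1 and the SUMO gene Sumo2, had -0.88, -0.76 and -1.24. Of these, Gm20689, Gm7887 and Gm10241 reached 1.0 FPKM only in Ct and get no test. Among those higher in CS, Gm12396, aligned without a mismatch to the gamma-secretase subunit gene Psenen, had 0.85 ± 0.25, and Gm11427, whose best alignment was to Slfn4, had 0.50 ± 0.17 (SE, exact permutation p = 0.0571 and limma adjusted p = 0.956 for each, limma-voom p = 0.111 and 0.0621). With a pseudocount of 1, Gm7887, Hsp25-ps1 and Gm10241 had -0.42, -0.47 and -0.52, and Gm12396 and Gm11427 had 0.54 and 0.33. The parents stayed within a log2 fold change of 0.22 in either direction, with a median absolute value of 0.05 over the 24 pairs of member and tested parent, and in 15 of the 24 pairs the signs were the same.

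By parent class, 11 of the 94 ribosomal copies had an unadjusted limma p under 0.05, 2 lower and 9 higher, and their median log2 fold change was 0.08. The share, 11.7%, stands beside 4.83% over all genes. As 44 of the 94 had under 30 reads, it also stands beside the shares of genes that are not members, 17.6% with under 30 reads and 8.29% with 30 to 100. Of the 81 ribosomal copies at 1.0 FPKM in both groups, 8 (9.88%) had such a p, 2 lower and 6 higher. Of the 82 ribosomal protein genes and paralogs tested, none was lower and 2 were higher by the same criterion, with a median of 0.03. The 53 members with parents outside the named classes held 15 (5 lower and 10 higher), or 28.3%, with a median of 0.08. Of the 31 among them at 1.0 FPKM in both groups, 6 (19.4%) had such a p, none lower and 6 higher. The 53 had a median of only 12.6 reads, and of the 205 genes with under 30 reads that are not members 17.6% had such a p. The nuclear and chromatin, cytoskeleton, glycolysis, oxidative phosphorylation, translation factor and zinc finger copies held none by limma, and Gm8034, a copy of Tmsb10, was the only one of these with a limma-voom p under 0.05 (0.0499).

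CS replicate 2 stood apart from the other libraries in these genes. It held the highest of the 8 values for 69 of the 213 members (32.4%), compared with 12.1% of the 9794 genes, and the next library, Ct replicate 3, for 31. Among the 94 members with a ribosomal parent it was the highest for 43 (45.7%), while among the 82 ribosomal protein genes it was the highest for 0 and CS replicate 4 for 46. Its median log2 ratio to the mean of the other 3 CS libraries was 0.29 over the members, 0.39 over the ribosomal copies, -0.08 over the ribosomal protein genes and 0.01 over all genes. Gm10335, a copy of Rpl23a, showed this plainly, at 4.30, 4.22, 4.23 and 4.49 FPKM in Ct and 3.85, 10.2, 5.41 and 4.94 FPKM in CS. Rpl28-ps1 had 37.0 FPKM in CS replicate 2 and 21.04 to 27.2 FPKM in the other 7 libraries.

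**Figure D4:**
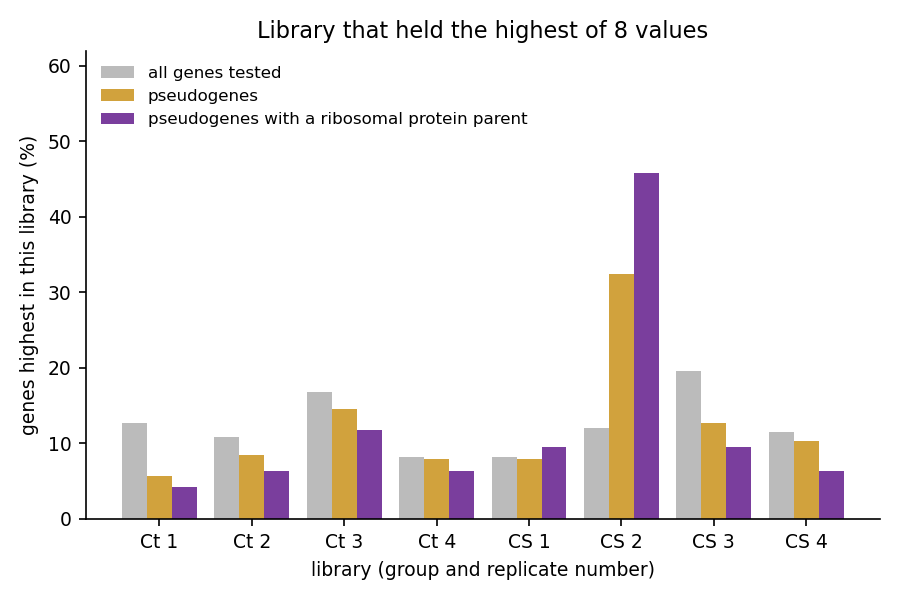
Share of genes (vertical, percent) for which each of the 8 libraries (horizontal) held the highest value, for all 9794 genes tested, the 213 pseudogenes and the 94 pseudogenes with a ribosomal protein parent. CS replicate 2 reaches 12.1%, 32.4% and 45.7% in the 3 sets.

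This excess was unequal between members of different likeness to other transcripts. CS replicate 2 was the highest library for 11 of 31 members with no window of their own, 13 of 26 with under 25%, 23 of 54 with 25% to 75% and 19 of 87 with over 75%, the other 15 members being shorter than 150 bases or not matched to a transcript. The median log2 ratio to the other CS libraries was 0.37, 0.37, 0.47 and 0.15 in these sets. What sets this library apart was not tested. Without CS replicate 2, 28 members had an unadjusted limma p under 0.05 (8 lower and 20 higher), 22 of them among the 30 found with all libraries, and 8 of the 30 were no longer in the count.

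The 6 members in the copy of mitochondrial DNA on chromosome 1 were all low, and so were some of the mitochondrial genes they match. The members RP23-8J15.2, RP23-8J15.3, RP23-8J15.1, RP23-8J15.4, RP23-8J15.7 and RP23-8J15.5 match mt-Co2, mt-Atp6, mt-Co1, mt-Co3, mt-Nd4 and mt-Nd3, which encode subunits of the respiratory chain and ATP synthase. Between 0% and 3.79% of their windows were their own. Their means over 8 libraries were 7.26, 5.76, 4.29, 3.80, 2.32 and 1.39 FPKM in the same order. In the mitochondrial genome, mt-Co2, mt-Co3, mt-Atp6, mt-Nd3 and mt-Nd4l had means of 5.90, 4.21, 3.42, 4.26 and 0.949 FPKM, and mt-Atp8 was listed at 0 FPKM in all 8 libraries. By contrast, mt-Co1, mt-Cytb, mt-Nd1, mt-Nd2, mt-Nd4, mt-Nd5 and mt-Nd6 had means of 882, 781, 484, 284, 262, 225 and 189 FPKM. The copy RP23-8J15.1 covers 492 of the 1545 bases of mt-Co1, whereas RP23-8J15.2 covers 681 of the 684 bases of mt-Co2.

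**Figure D5:**
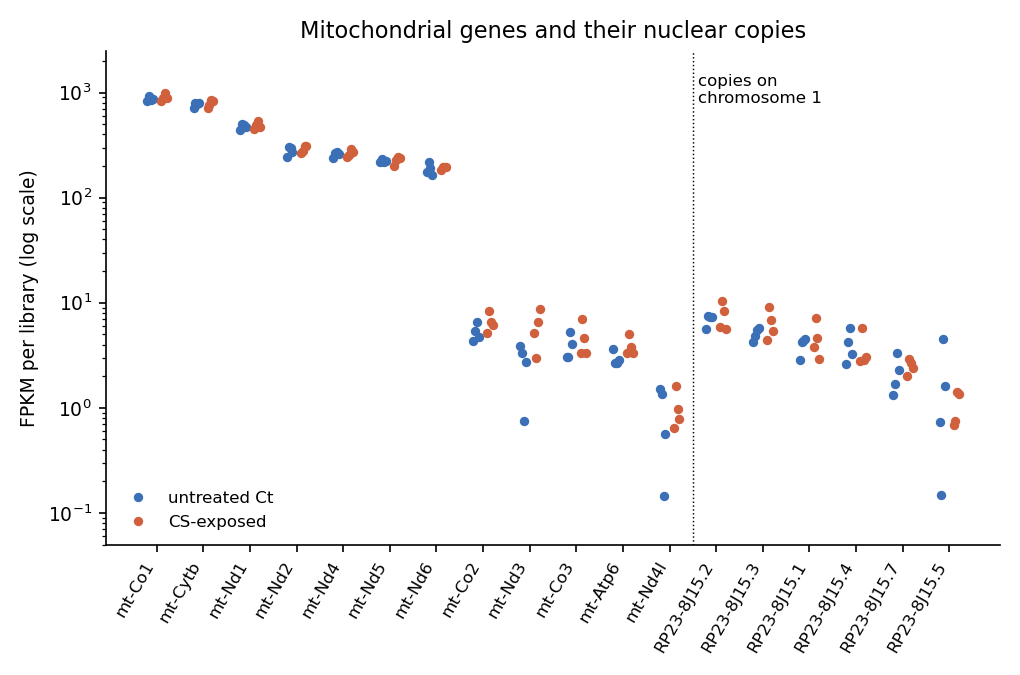
FPKM per library on a log scale for 12 genes of the mitochondrial genome (left of the dotted line) and the 6 members in the copy on chromosome 1 (right), with untreated Ct in blue and CS-exposed in orange. The first 7 genes lie between 164 and 981 FPKM, and the other 5 and the 6 copies reach at most 10.4 FPKM.

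Neither the copies nor these genes separated the groups, as Ct and CS values overlapped in each of them. RP23-8J15.2 was at 5.61, 7.51, 7.39 and 7.39 FPKM in Ct and 5.92, 10.4, 8.30 and 5.63 FPKM in CS, and its parent mt-Co2 at 4.34, 5.40, 6.54 and 4.69 and at 5.20, 8.36, 6.62 and 6.08 FPKM. In both, CS replicate 2 was the highest. The limma p of the 6 copies ran from 0.153 to 0.964. Of the mitochondrial genes, mt-Nd3 had the largest difference, at 0.742 to 3.902 FPKM in Ct and 2.99 to 8.63 FPKM in CS, and its log2 fold change was 1.22. It and mt-Atp6, with a log2 fold change of 0.38, had unadjusted limma p-values under 0.05 and adjusted p = 0.956. The limma-voom p was 0.0154 for mt-Nd3 and 0.181 for mt-Atp6. The mt-Nd3 copy RP23-8J15.5 was at 0.147 to 4.49 and 0.687 to 1.41 FPKM, with a log2 fold change of -0.03.

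At the threshold itself the members rested on few reads. Just above 1.0 FPKM in their higher group were Gm12693 (1.004 FPKM in Ct and 0.592 in CS), Tpt1-ps5 (1.02 and 0.610) and Llph-ps2 (1.03 and 0.738), with 1 to 19 reads per library. Just below it were Gm7429 (0.565 and 0.999), Gm10029 (0.607 and 0.999) and Gm15487 (0.635 and 0.994), with 0 to 17 reads. The larger of the 2 group means was under 1.5 FPKM in 58 of the 213 members, and 130 members were at 1.0 FPKM or more in all 8 libraries.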

How the data were processed

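The 8 RNA-seq libraries, 4 Ct and 4 CS, were analysed from the table that the authors deposited. Its values are FPKM per gene and library, which the authors derived from paired 150-base reads mapped to the mouse genome. The submitters' processing notes name STAR 2.5, HTSeq 0.6.1, DESeq2 (listed as version 2) and the builds GRCm38 and mm10. The annotation release and the treatment of reads that align to several places are not given in the sources used here. The deposited group means and the authors' columns of log2 fold changes and p-values were not used.

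The members and lists were chosen with earlier results of these data known. Tests used limma 3.58.1 (R 4.3.3) with a trend, two-sided, on log2(FPKM + 0.1), a scale that understates changes of low genes, over the 9794 genes whose Ct or CS mean reached 1.0 FPKM, with Benjamini-Hochberg adjustment over all of them. Single genes also had a two-sided exact permutation test over 70 assignments. The pools are separate by the labels, so p-values measure the spread between pools, and no term for sex was fitted.

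The fragment total was scaled to gene lengths in GENCODE M21, at the value shared by the most genes, 727 of 9072 with a length. Reads were recovered from the steps between low FPKM values and tested with limma-voom. Unique reads and multiply aligned reads cannot be told apart in them. Parents were found with blastn 2.17.0 (e-value 1e-10) of the annotated transcripts in GENCODE M21, with at least 50% of the member aligned. The script was tested on simulated data. Same-numbered Ct and CS libraries had deviations that correlated at 0.01, 0.08, 0.11 and 0.16 across genes.

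Named members were the 12 highest in level, up to 8 lower and 8 higher with the smallest p under 0.05, all members without overlap, the 3 nearest to each side of the threshold, the 6 with most and the 6 with fewest reads, and parent families of 3 or more. Rps2-ps10, Gm12254, Gm9385, Gm8034, Tmem181b-ps, Gm21811, Gm10557 and the chromosome 1 copies were added after their values were seen. Alternatives covered the minimum level, pseudocount, scaling, variance model, replicate block, limma-voom and leaving out each library.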

Additional observations from a re-analysis of the deposited data

Results flagged for a closer look

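Among the 72 named pseudogenes, 142 groups of 4 libraries with a spread above 0 were searched for 1 library far from the other 3 by Dixon's gap criterion (the gap to the nearest library over the whole range). Chance flags about 1 in 20 groups, and 9 of the 142 met the limit. In 6 the library was high. Gm2830 was at 69.4 FPKM in Ct replicate 1 against 47.1 to 49.7 FPKM in the other Ct libraries, Gm10247 at 2.72 FPKM in the same library against 0.904 to 1.06 FPKM, and Gm20900 at 1.67 FPKM in Ct replicate 4 against 0.762 to 0.838 FPKM. In CS replicate 2, Gm11628 was at 4.05 FPKM against 0 to 0.554 FPKM, and Rps13-ps1 at 7.08 FPKM against 3.44 to 3.89 FPKM. Gm20689 was at 1.49 FPKM in CS replicate 4 against 0 to 0.175 FPKM. In 3 the library was low: Gm8129 at 0.457 FPKM in CS replicate 3 against 2.00 to 2.17 FPKM, Rpl17-ps9 at 0.351 FPKM in the same library against 1.33 to 1.45 FPKM, and Rps13-ps2 at 2.35 FPKM in Ct replicate 2 against 3.54 to 3.66 FPKM. The cause was not tested for any of them.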

How the results depend on the processing

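The count of members with an unadjusted p under 0.05 was 30. It was 17 of 127 members with a minimum of 2 FPKM (15 of them among the 30), which tests fewer genes, 14 with limma-voom on recovered reads (11 among the 30), and 27 to 32 with the other minimums, pseudocounts, scalings and variance models. Leaving out 1 library gave 28 to 38. The count at an adjusted p under 0.05 was 0 in all of these and 1 with the replicate block, where Gm13192 passed and 37 members, Pisd-ps1 among them, had an unadjusted p under 0.05. The numbers are shared only as numbers, since not every pair of same-numbered libraries correlated above 0.1. A pseudocount of 1 lowered the size of the log2 fold change of 10 of the 17 members named for their change by over 1.5 times. Their direction held in all alternatives in which they could be fitted. This says little, since the 17 were picked for their difference in these same libraries. With a minimum of 2 FPKM only 8 could be fitted. With 1 library left out, 14 to 16 of the 17 had an unadjusted limma p under 0.05. With limma-voom 7 of the 17 had a p under 0.05. Of these 7, 4 (Gm12854, Gm10478, RP24-142M5.3 and Gm20689) had been chosen through the group in which they were high. Members without overlap numbered 10, and 6 with a minimum of 2 FPKM. Leaving out 1 library gave 14 (Ct replicate 2) to 18 (Ct replicate 1 or CS replicate 1), with 16 or 17 without any other, since 7 values overlap less readily than 8. The number of members was 362 at 0.5 FPKM, 127 at 2 FPKM, 130 with every library at 1.0 FPKM, and 211 to 225 without 1 library. The symbol before -ps named the same parent in 48 of 55 members that carry one, and the best hit among all genes other than pseudogenes was the same in 195 of 195. Members with under 30 reads numbered 107 to 111 without 1 library, an alternative chosen after seeing the data. Depth can limit precision, and 111 of 213 members had a mean under 30 reads. How much of the spread depth accounts for was not tested.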
